A study of Homo sapiens with 48 samples.

Results

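The genes followed were 8 of the cell-death complexes that form under TNF receptor 1 (TNFR1): CASP8, CASP10, CFLAR, FADD, TRADD, RIPK1, RIPK3 and MLKL. Members were taken by gene symbol, and 7 of the 8 had a probe, with 12 probes in all, among 20045 genes and 30112 probes with 1 symbol. No probe carried the symbol RIPK1, so that gene was not analysed here. The 48 Illumina HumanHT-12 bead arrays, 1 per sample, formed 20 groups of 2 human breast cancer cell lines, MDA-MB-231 and EVSA-T. All treated cells received BV6, a bivalent Smac mimetic that antagonizes the inhibitor of apoptosis proteins.

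The siRNA experiment comprised 24 arrays of MDA-MB-231 in 8 groups of 3. Cells carried control siRNA (siCtrl) or siRNA against TNFR1, RELA or IRF1, and within each siRNA a group without drug was set beside one that had 50 nM BV6 over 9 h. The kinetic experiment comprised 16 arrays of untransfected MDA-MB-231 in 8 groups of 2. Untreated cells were taken at 0, 9 and 15 h, and cells under 50 nM BV6 at 3, 6, 9, 12 and 15 h. EVSA-T contributed 8 arrays in 4 groups of 2, siCtrl or TNFR1 siRNA without drug or after 9 h in 5 nM BV6. Per the labels, transfection was with 5 nM siRNA for 36 h and the shared protocol names only control and TNFR1 siRNA. The dose of BV6 thus differed between the lines, so the responses of the lines stand side by side below with no test between them. Each line is 1 established culture, and the labels do not say that replicates came from separate cultures, so the p-values measure only the spread between these samples, which may be technical. The arrays lay on 4 slides, with all EVSA-T arrays on a slide that held no transfected MDA-MB-231 array, so line and slide cannot be told apart.

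After TNF binds, TNFR1 recruits the adaptor TRADD and the kinase RIPK1 to a membrane complex that drives NF-kB signalling. When RIPK1 is released from that complex, as happens once the ubiquitin ligases cIAP1 and cIAP2 are lost, it can join FADD and caspase-8 in a cytosolic complex that kills the cell by apoptosis. CFLAR, which encodes cFLIP, is a catalytically dead relative of caspase-8 that pairs with it and restrains it, and its transcription is a known target of NF-kB. Where caspase-8 is blocked, RIPK1 can instead activate RIPK3, which phosphorylates MLKL, the pore-forming executor of necroptosis.

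Promoter windows, 250 bases before to 50 after an annotated start, were available from RefSeq (GRCh38.p14) for 5 of the 8 genes: 12 windows, of which CFLAR had 4, CASP8 and RIPK1 had 3 each, and FADD and MLKL had 1 each. Those of CFLAR (its first start), FADD and MLKL are shown because the levels of these genes changed with BV6 or IRF1 siRNA. Capitals mark matches on either strand, which do not overlap, to the NF-kB consensus in CFLAR and to TGANTCA (an AP-1 motif) in FADD.
CFLAR, chr2:201118466-201118765, plus strand: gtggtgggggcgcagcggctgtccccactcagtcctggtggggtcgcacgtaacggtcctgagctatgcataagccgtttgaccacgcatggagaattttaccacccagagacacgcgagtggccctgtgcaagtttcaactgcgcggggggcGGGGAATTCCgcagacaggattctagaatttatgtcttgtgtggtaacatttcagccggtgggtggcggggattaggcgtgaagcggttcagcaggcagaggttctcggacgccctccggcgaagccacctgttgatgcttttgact
FADD, chr11:70203046-70203345, plus strand: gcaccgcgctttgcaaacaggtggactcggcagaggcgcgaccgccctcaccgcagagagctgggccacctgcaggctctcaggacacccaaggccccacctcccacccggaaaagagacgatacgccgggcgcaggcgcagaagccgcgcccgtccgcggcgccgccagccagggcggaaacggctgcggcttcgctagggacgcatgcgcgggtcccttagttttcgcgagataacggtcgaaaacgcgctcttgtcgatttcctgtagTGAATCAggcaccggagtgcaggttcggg
MLKL, chr16:74700813-74701112, minus strand: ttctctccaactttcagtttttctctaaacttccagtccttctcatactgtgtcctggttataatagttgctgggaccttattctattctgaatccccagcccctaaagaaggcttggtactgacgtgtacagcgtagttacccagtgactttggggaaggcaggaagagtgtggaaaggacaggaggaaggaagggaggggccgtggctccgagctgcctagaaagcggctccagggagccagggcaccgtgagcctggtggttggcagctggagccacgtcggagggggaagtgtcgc
The CFLAR window shown held 1 match to the NF-kB consensus and its other 3 windows held 0; the motif occurs in 11.3% of all 35116 windows of the same length, and the FADD window held 1 TGANTCA, which occurs in 7.71%. None of the 3 windows held the consensus of the interferon regulatory factor element (in 0.265% of windows) or TTCNNNGAA (a STAT motif, in 7.66%), and that of MLKL held none of the 4 motifs. A match is a run of letters and not a shown binding site.

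The siRNAs were checked on their targets before the members were read. TNFRSF1A, which encodes TNFR1, was not detected on any of the 3 arrays of untreated siTNFR1 cells and lay at least 18.5-fold below siCtrl (limma adjusted p = 3.45e-14), and in EVSA-T it was at least 6.62-fold lower (adjusted p = 0.0107). RELA was at least 3.57-fold lower with its siRNA in untreated cells, and IRF1 fell by 3.35 on the log2 scale (SE 0.246, adjusted p = 7.3e-10, n = 3 each). Among epithelial markers, CDH1 was detected on 0 of 40 MDA-MB-231 and 8 of 8 EVSA-T arrays, KRT18 on 38 of 40 and 4 of 8, and EPCAM, KRT8 and KRT19 on all arrays of both lines. CLDN4 was detected on 6 of 40 and 1 of 8, and GATA3 on 3 of 40 and 0 of 8. Among mesenchymal markers, SNAI2 was detected on 38 of 40 and 0 of 8 arrays, VIM on all of both lines (median 13.95 and 7.76), and FN1 and SPARC on 0. ZEB1 was detected on 5 of 40 and 0 of 8, and CDH2 on 3 of 40 and 0 of 8. ESR1 and the leukocyte marker PTPRC were detected on 0 arrays of either line, and none of the 6 endothelial and fibroblast markers was detected on most arrays of a line. Of the other leukocyte markers, CD68 was detected on 40 of 40 and 4 of 8 arrays and CD14 on 18 of 40 and 1 of 8. Between 10167 and 13072 probes were detected per array, at a detection p under 0.01, and replicates correlated across probes at r of 0.9884 or more.

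Detection divided the 7 measured genes. FADD was detected on 48 of 48 arrays, MLKL on 47, CFLAR on 35 (28 of 40 in MDA-MB-231 and 7 of 8 in EVSA-T) and the brighter of the TRADD probes on 36 (29 of 40 and 7 of 8). The second TRADD probe was detected on 7 arrays, 3 in MDA-MB-231 and 4 in EVSA-T. CASP8 and CASP10, the initiator caspases of these complexes, were rarely above background, and the RIPK3 probe was above it on 0 of 48 arrays. The detection p is the authors' and does not always follow the signal: the highest undetected CFLAR value was 7.70 on the log2 scale of all 48 arrays normalized together, above its lowest detected value of 6.42.

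**Figure D1:**
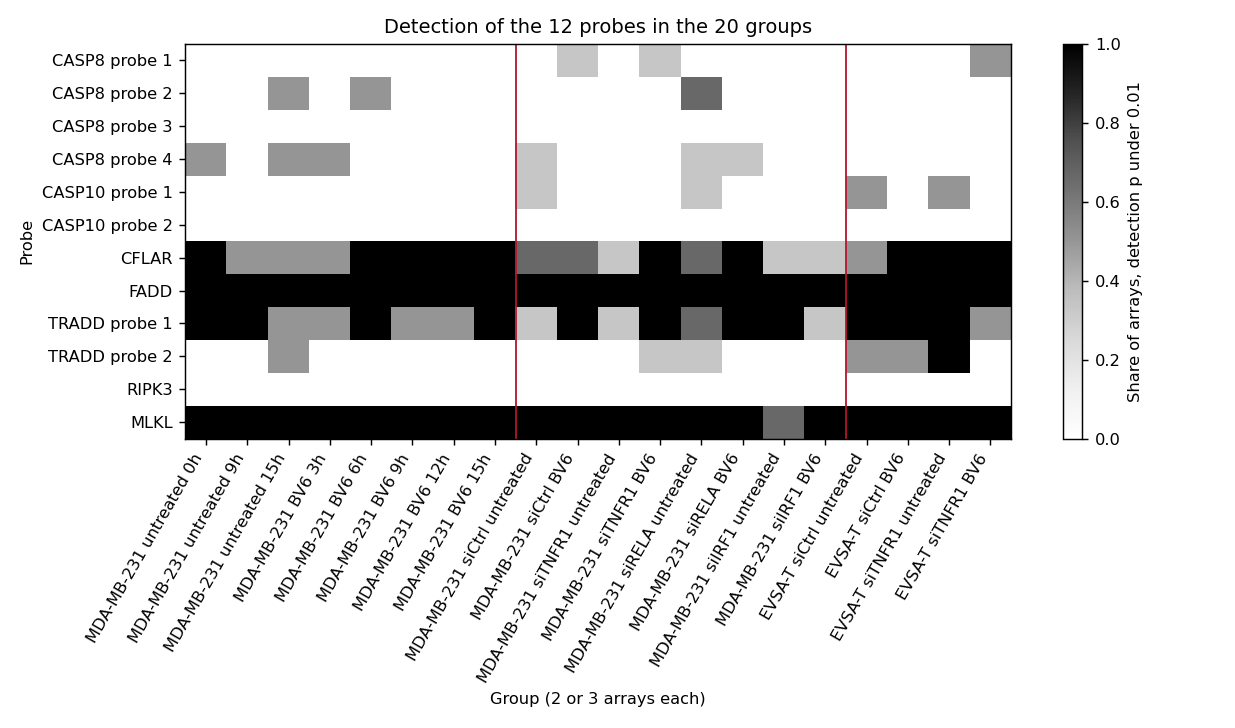
Share of each group's arrays (2 or 3 per group) on which each of the 12 member probes had a detection p under 0.01, with the 20 groups as columns, the probes as rows and the share as colour from 0 to 1. FADD was detected on every array and RIPK3 on none, while the CASP8 and CASP10 probes were detected on scattered arrays.

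Caspase-8 is the initiator protease of the complex. Its 4 probes were detected on 3, 4, 0 and 6 of 48 arrays, and at least 1 of them was detected on 12 arrays. No single CASP8 probe was detected on all arrays of a group; in untreated cells at 15 h, 1 probe was detected in replicate 1 and another in replicate 2. Group means of these probes lay between 5.19 and 5.68 on the common log2 scale, where the median undetected probe of an array lay between 5.31 and 5.33. In the fits of the siRNA and kinetic experiments, CASP8 was represented by the probe of highest mean among those that passed the detection filter. Its changes with BV6 or knockdown ran from -0.08 to 0.18 with adjusted p of 0.399 or more. Such values sit near background, where changes are compressed, and they do not show a constant level.

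CASP10, the close relative of CASP8, gave a like picture. One of its 2 probes was detected on 4 of 48 arrays, replicate 1 of the untreated siCtrl and siRELA groups of MDA-MB-231 and replicate 1 of both untreated EVSA-T groups, and the other on 0. Group means of the CASP10 probes lay between 5.21 and 5.54. In EVSA-T, the only single experiment where it passed the filter, its changes ran from -0.12 to -0.02 with none called. The RIPK3 probe, for the kinase that activates MLKL, had group means from 5.18 to 5.42 and was tested in no experiment. At the looser detection p of 0.05 it was above background on 5 of 48 arrays, and the CASP8 probes on 10, 6, 1 and 14.

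CFLAR was the member that rose with BV6 in both lines when control siRNA was present. In MDA-MB-231 with siCtrl, its log2 signal was 7.27, 6.55 and 7.01 without BV6 (detected on 2 of 3 arrays) and 8.37, 7.73 and 7.72 with it (detected on 2 of 3). The groups did not overlap, and the change of 1.00 (SE 0.259, adjusted p = 0.0356) was 2-fold. CFLAR was the 1 member of 5 tested that was called here, where 2.55% of 9586 genes were called and 1.74% were called higher. That call rested on single arrays: without replicate 1 of the BV6 group the change was 0.78 (adjusted p = 0.203), without replicate 2 of the untreated group 0.80 (adjusted p = 0.178), and without replicate 3 of it 1.03 (adjusted p = 0.083). It was also lost when genes were kept at a detection p under 0.05 (adjusted p = 0.0557) or with no filter (adjusted p = 0.1). The call held when replicate number entered as a block, where TRADD was called too (limma adjusted p = 0.045).

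Under the other siRNAs of MDA-MB-231, limma called 0 of 5 members with BV6. At an unadjusted p under 0.05 there were 2 with siTNFR1 (CFLAR and TRADD), 1 with siRELA (TRADD) and 0 with siIRF1, beside 11.5%, 5.9% and 8.63% of all genes. With siTNFR1, CFLAR read 7.27, 6.32 and 7.05 untreated and 8.33, 7.56 and 7.33 with BV6, which did not overlap, and the change was 0.86 (SE 0.259, adjusted p = 0.117; 1.32% of genes called). With siIRF1 it read 6.77, 6.93 and 6.79 untreated and 7.15, 7.73 and 7.15 with BV6, a change of 0.51 (adjusted p = 0.623; 0.845% called). With siRELA, which targets the NF-kB subunit p65, it read 7.29, 7.60 and 7.07 untreated and 7.98, 7.73 and 7.43 with BV6. Those siRELA groups overlapped, with a change of 0.40 (adjusted p = 1; 0.303% called).
Whether these responses differed from that with siCtrl was tested directly. The difference was -0.14 for siTNFR1 (95% interval -0.90 to 0.62, adjusted p = 0.972; 0.0104% of genes called), -0.60 for siRELA (interval -1.36 to 0.15, adjusted p = 0.983; 0.0417%) and -0.49 for siIRF1 (interval -1.25 to 0.27, adjusted p = 0.999; 0.177%). None was called, and each interval holds 0.

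In untransfected MDA-MB-231 cells the CFLAR signal of the 6 untreated arrays was 7.44 and 7.13 at 0 h, 7.10 and 6.32 at 9 h, and 7.35 and 6.50 at 15 h. With BV6 it read 7.14 and 6.78 at 3 h, 7.74 and 7.08 at 6 h, 7.85 and 7.57 at 9 h, 7.80 and 7.62 at 12 h, and 7.62 and 7.55 at 15 h. The BV6 arrays at 9, 12 and 15 h all lay above the 6 untreated ones, and those at 3 and 6 h overlapped them. Against the 3 untreated groups together the changes were -0.01 (SE 0.246) at 3 h, 0.44 at 6 h, 0.73 at 9 h, 0.74 at 12 h and 0.62 at 15 h, with adjusted p of 0.993, 0.77, 0.23, 0.114 and 0.149. No time was called in the fit without a replicate block. Untreated cells at 9 and 15 h were also set against 0 h, with 0 of 5 members called in each by limma, 0 at an unadjusted p under 0.05 (2.45% and 2.92% of genes), and 0.0101% and 0% of genes called. When replicate number entered as a block, the adjusted p was 0.0262 at 9 h, 0.012 at 12 h and 0.0237 at 15 h. Genes called were 0.382% at 3 h, 0.473% at 6 h, 1.22% at 9 h, 4.15% at 12 h and 6.96% at 15 h, and 219, 673 and 1112 genes with the block at 9, 12 and 15 h against 121, 413 and 692 without it. Replicate 2 of the BV6 arrays from 6 h on lay on another slide than the untreated arrays. Within the slide they shared the changes were 0.77, 0.87, 0.83 and 0.65 at 6, 9, 12 and 15 h, from 1 BV6 array each. That array was replicate 1, which for CFLAR read above replicate 2 at every time, treated or untreated.

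EVSA-T cells showed the largest CFLAR values of the 20 groups. With siCtrl the signal was 7.86 and 7.33 untreated (1 of 2 arrays detected) and 9.22 and 9.43 with 5 nM BV6, without overlap. The rise was 1.73 (SE 0.223, 3.32-fold, adjusted p = 0.000501, n = 2 each), and CFLAR was again the 1 member of 5 tested that was called, among 11.4% of 8422 genes (6.84% higher). With siTNFR1 the arrays read 7.71 and 7.56 untreated and 7.99 and 7.60 with BV6, overlapping, and the change was 0.16 (SE 0.223, adjusted p = 1; 0.0712% of genes called). The response was smaller with siTNFR1 than with siCtrl by 1.57 on the log2 scale (difference -1.57, SE 0.315, adjusted p = 0.0192; 3.85% of genes called, 3.05% lower). That call held with replicate number as a block and was lost with no filter on detection (limma adjusted p = 0.0809). In BV6-treated cells, siTNFR1 lowered CFLAR 2.89-fold against siCtrl (-1.53, adjusted p = 0.0013; 11.5% of genes called, 6.96% lower), and in untreated cells the difference was 0.04 (adjusted p = 0.988; 0.0356% called).
The rise with siCtrl was called with every array left out in turn, from 1.47 to 2.00. The difference between siRNAs kept its sign but missed the threshold without replicate 2 of siCtrl with BV6 (-1.46, adjusted p = 0.0716), replicate 2 of siCtrl untreated (-1.31, 0.0809), replicate 2 of siTNFR1 with BV6 (-1.37, 0.0874) or replicate 1 of siTNFR1 untreated (-1.50, 0.0669).

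**Figure D2:**
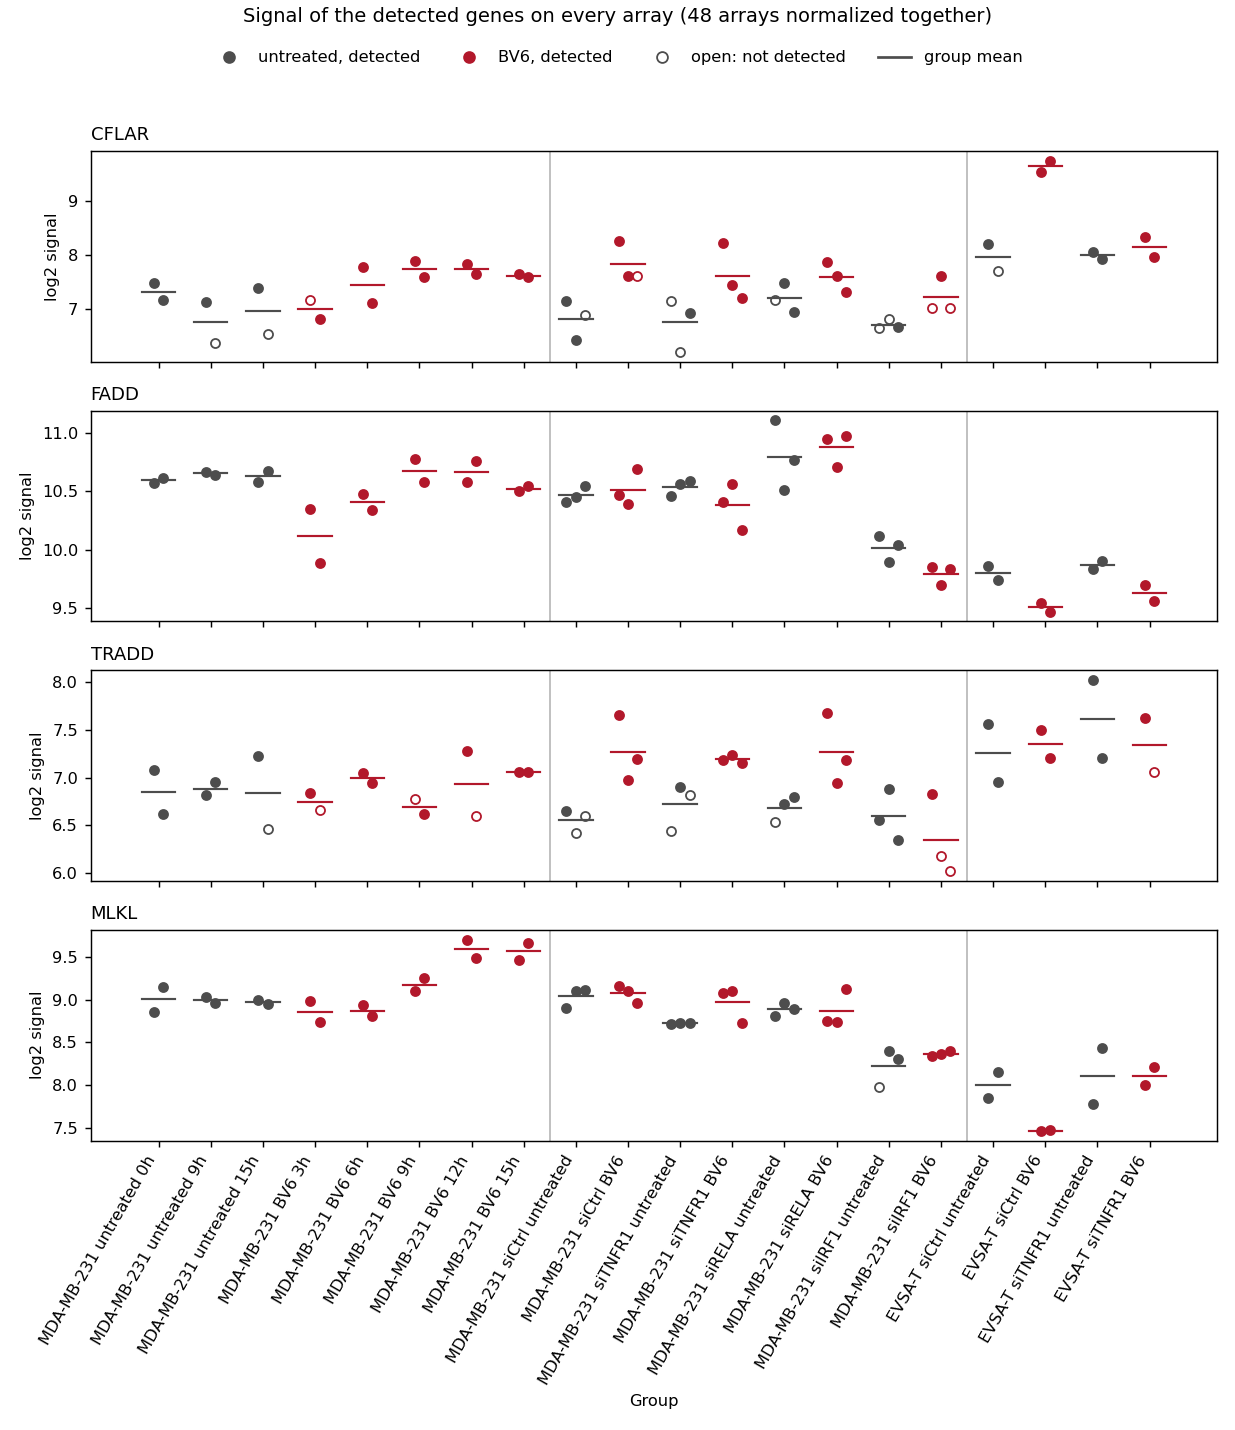
Log2 signal of CFLAR, FADD, TRADD (its brighter probe) and MLKL on each of the 48 arrays, normalized together, by group, with bars at group means and open points where the detection p was not under 0.01. The 2 EVSA-T siCtrl arrays with BV6 stood highest for CFLAR at 9.53 and 9.74, and the 4 EVSA-T groups had the lowest means for MLKL.

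FADD, the adaptor that binds the death domain of receptors or RIPK1 and brings in caspase-8, was called in none of the 11 comparisons with BV6. With siCtrl in MDA-MB-231 it read 10.50, 10.54 and 10.64 untreated and 10.56, 10.49 and 10.78 with BV6, which overlapped, and the change was 0.05 (95% interval -0.24 to 0.33, adjusted p = 0.926). Under the other siRNAs the changes were -0.16 (siTNFR1), 0.08 (siRELA) and -0.22 (siIRF1), with adjusted p of 0.74 or more. In EVSA-T it read 9.57 and 9.44 untreated and 9.23 and 9.16 with BV6 for siCtrl, apart by -0.30 (adjusted p = 0.308), and the siTNFR1 change was -0.25 (adjusted p = 1).
In the kinetic experiment the 2 arrays at 3 h, 10.33 and 9.85, lay below all 6 untreated arrays, which spanned 10.54 to 10.65. That difference of -0.50 (SE 0.14) was not called (adjusted p = 0.167), and without replicate 1 it was -0.74 (adjusted p = 0.0252). From 6 to 15 h the FADD changes ran from -0.21 to 0.05. Of the 5 members tested at each of 3, 6 and 9 h, limma called 0. At an unadjusted p under 0.05 there was 1 at 3 h (FADD), 0 at 6 h and 1 at 9 h (CFLAR), beside 10.9%, 7.69% and 11.2% of all genes.

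IRF1 siRNA gave lower FADD. In untreated MDA-MB-231 cells it read 10.21, 10.00 and 10.14 with siIRF1, below all 3 siCtrl arrays, a change of -0.45 (SE 0.138, 1.36-fold lower, adjusted p = 0.0226). With BV6 the siIRF1 arrays read 9.96, 9.80 and 9.94, again below all 3 siCtrl arrays, and the change was -0.71 (SE 0.138, 1.64-fold lower, adjusted p = 0.000483). These comparisons are read against their background: siIRF1 called 21.8% of genes in untreated and 22.1% in BV6-treated cells, with 12.4% and 12.8% lower. Within slides 1 and 2 the FADD changes were -0.31 and -0.57 untreated and -0.56 and -0.91 with BV6. The untreated call was lost without replicate 2 of siIRF1 (-0.38, adjusted p = 0.0953) or replicate 3 of siCtrl (-0.40, adjusted p = 0.0735).
FADD stood highest of all groups with siRELA, at 11.20, 10.61 and 10.87 untreated and 11.04, 10.81 and 11.08 with BV6. The changes of 0.33 (adjusted p = 0.0964; 21% of genes called) and 0.36 (adjusted p = 0.0683; 19.1% called) against siCtrl were not called, although the BV6-treated groups did not overlap.

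TRADD, the adaptor that docks on the death domain of TNFR1, was dim: its brighter probe was detected on 1 of 3 untreated siCtrl arrays of MDA-MB-231 and on 3 of 3 with BV6. The signal was 6.78, 6.54 and 6.73 untreated and 7.77, 7.10 and 7.32 with BV6, without overlap. The change of 0.71 (SE 0.205, adjusted p = 0.0658) missed the threshold, and a fit blocked on replicate number gave an adjusted p of 0.045. Under siTNFR1 and siRELA the TRADD groups also did not overlap, with changes of 0.47 (adjusted p = 0.362) and 0.58 (adjusted p = 0.546).
In the kinetic experiment, without transfection, the TRADD changes ran from -0.17 to 0.21 over the 5 times and the groups overlapped at each. In EVSA-T they were 0.10 with siCtrl and -0.29 with siTNFR1, and replicate 1 read above replicate 2 in all 4 groups.

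With siIRF1, TRADD read 6.69, 7.01 and 6.47 untreated and 6.95, 6.30 and 6.13 with BV6, of which 1 BV6 array was detected. Against siCtrl the untreated change was 0.04 (adjusted p = 0.933), and the BV6 change was -0.93 (SE 0.205, 1.91-fold lower, adjusted p = 0.0016), with no overlap. The response to BV6 itself differed between siIRF1 and siCtrl by -0.97 (SE 0.29, 95% interval -1.57 to -0.37), which was not called over all genes (adjusted p = 0.501). So TRADD was lower with siIRF1 in treated cells by a called amount, while a differing response was not shown. Within slides 1 and 2 the BV6 change was -0.48 and -1.10.

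MLKL rose late in the kinetic experiment. Its untreated arrays read 8.82 and 9.12 at 0 h, 8.99 and 8.93 at 9 h, and 8.96 and 8.92 at 15 h. With BV6 they read 8.95 and 8.71 at 3 h, 8.90 and 8.78 at 6 h, 9.06 and 9.21 at 9 h, 9.67 and 9.45 at 12 h, and 9.43 and 9.64 at 15 h. All 4 arrays of 12 and 15 h stood above every untreated array, and the earlier times overlapped them. The changes were 0.60 at 12 h (SE 0.136, 1.52-fold, adjusted p = 0.0207) and 0.58 at 15 h (SE 0.136, 1.49-fold, adjusted p = 0.0185). At 3, 6 and 9 h they were -0.13, -0.12 and 0.18, with adjusted p of 0.696 or more. In the fit without a replicate block, MLKL was the 1 member of 5 called at either late time. There 2.53% and 3.87% of genes were called higher at 12 and 15 h.
The rise from 3 to 15 h of treatment was 0.71 (SE 0.167, adjusted p = 0.0267), again 1 of 5 members, with 4.16% of genes called and 2.61% higher. Within the slide shared with the untreated arrays the changes were 0.72 at 12 h and 0.47 at 15 h, from 1 array each.
The 12 and 15 h calls held with replicate number as a block, where CFLAR was called too (limma adjusted p = 0.012 and 0.0237). With 2 arrays a time, single arrays decided these calls and that of 15 h against 3 h. The 12 h call was lost without its replicate 1 (0.49, adjusted p = 0.269). The 15 h call was lost without its replicate 1 (0.68, adjusted p = 0.0728) or 2 (0.47, adjusted p = 0.231), and with the 15 h untreated arrays as the only reference (0.60, adjusted p = 0.0626). The difference between 15 and 3 h was lost without replicate 1 (0.81, adjusted p = 0.0761) or 2 (0.60, adjusted p = 0.194) of 15 h, or replicate 2 of 3 h (0.58, adjusted p = 0.185).

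**Figure D3:**
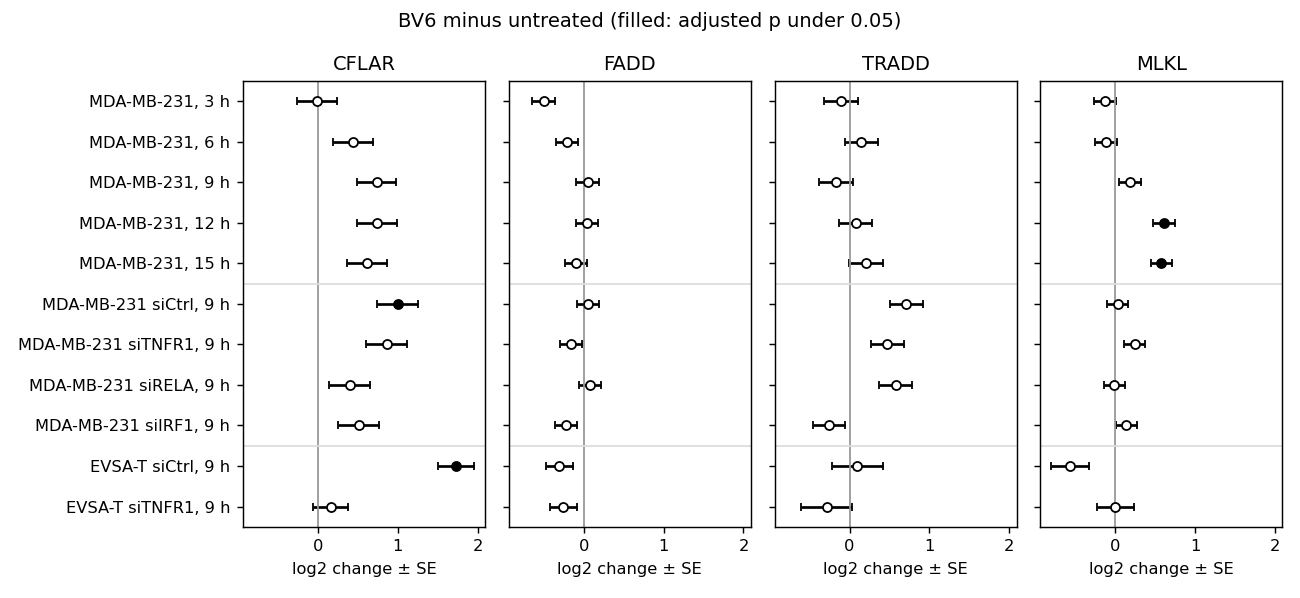
Log2 change with BV6 (point, bar = SE) of CFLAR, FADD, TRADD and MLKL in 11 comparisons of the 3 experiments, filled where the limma adjusted p was under 0.05. CFLAR was called with siCtrl in both lines, at 1.00 in MDA-MB-231 and 1.73 in EVSA-T, and MLKL was called at 12 and 15 h.

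At 9 h in transfected MDA-MB-231 cells MLKL was not called. With siCtrl it read 9.02, 9.22 and 9.23 untreated and 9.28, 9.21 and 9.08 with BV6, overlapping, and changed by 0.03 (95% interval -0.24 to 0.30, adjusted p = 0.955). In EVSA-T with siCtrl, MLKL read lower with BV6, at 7.08 and 7.09 against 7.50 and 7.81 untreated. That change of -0.57 (SE 0.232) was not called (adjusted p = 0.166). With siTNFR1 the EVSA-T arrays read 7.42 and 8.10 untreated and 7.65 and 7.87 with BV6, a change of 0.00 (SE 0.232), and the responses differed by 0.57 (SE 0.329, adjusted p = 0.468).
Under IRF1 siRNA, MLKL was lower in MDA-MB-231 with and without BV6. It read 8.10, 8.51 and 8.42 untreated, 1.76-fold below siCtrl (-0.81, SE 0.132, adjusted p = 6.41e-05), and 8.46, 8.48 and 8.51 with BV6, 1.63-fold below (-0.71, SE 0.132, adjusted p = 0.000313). Neither pair of groups overlapped, and within slides 1 and 2 the changes were -1.02 and -0.77 untreated and -0.79 and -0.58 with BV6. With siTNFR1, untreated MLKL was lower by 0.31 without overlap, but not by a called amount (-0.31, adjusted p = 0.231; 3.31% of genes called). In BV6-treated EVSA-T cells MLKL read higher with siTNFR1 than with siCtrl, by 0.67 (SE 0.232, adjusted p = 0.0944).

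**Figure D4:**
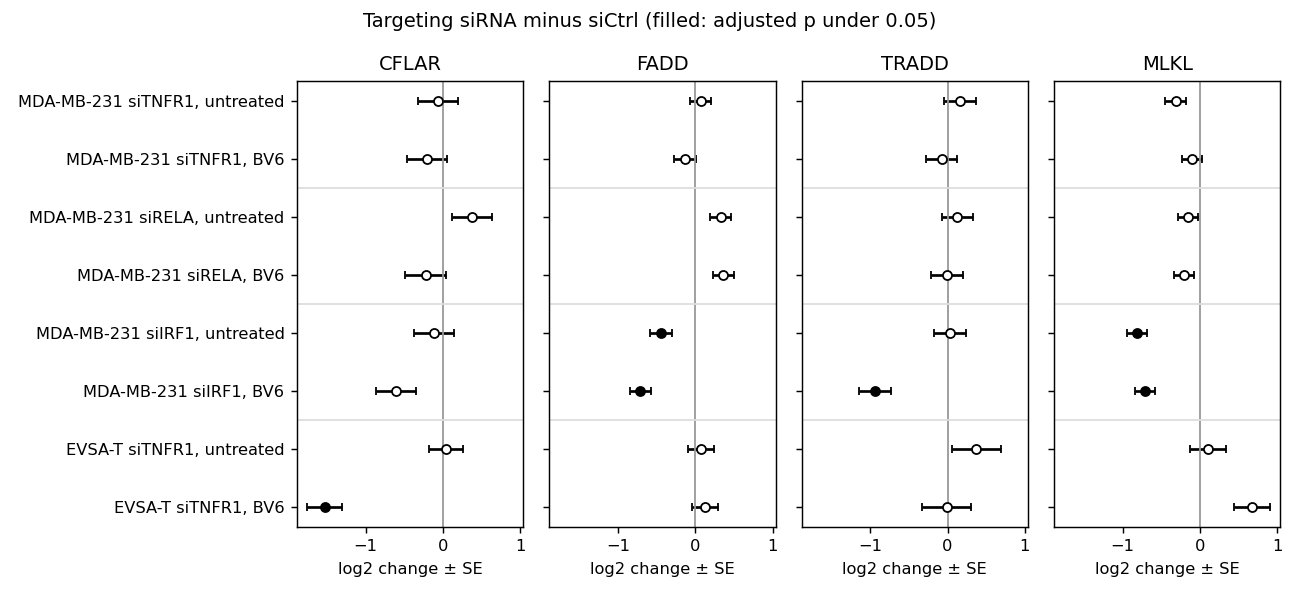
Log2 difference (point, bar = SE) of targeting siRNA minus siCtrl for CFLAR, FADD, TRADD and MLKL in 8 comparisons, filled where the limma adjusted p was under 0.05. With siIRF1, FADD and MLKL were lower in untreated and treated cells and TRADD in treated cells, and with siTNFR1 CFLAR was lower in BV6-treated EVSA-T cells.

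In counts, siIRF1 called 2 of 5 tested members lower in untreated cells (FADD and MLKL) and 3 of 5 in treated cells (FADD, TRADD and MLKL), where 12.4% and 12.8% of all genes were called lower. The median changes over all 5 tested members were -0.11 and -0.71, beside 0.00 over all genes tested in each comparison. By limma, siTNFR1 called 0 of 5 in either state, beside 3.31% of genes untreated and 4.96% with BV6, and siRELA called 0 of 5 beside 21% and 19.1%. At an unadjusted p under 0.05, siTNFR1 had 1 of 5 members untreated (MLKL; 15.7% of all genes) and 0 with BV6 (19% of genes), and siRELA had 1 in each state (FADD; 32.7% and 31% of genes). In bulk RNA, fewer cells with a transcript and less of it per cell cannot be told apart. The siRNA comparisons share their siCtrl arrays, so they are not independent of each other.

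The 2 lines were compared untreated, on 20 arrays normalized together, with siCtrl and with siTNFR1. With siCtrl, 4 of 6 tested members were called: CFLAR and TRADD higher in EVSA-T and FADD and MLKL lower. The same 4 genes were called in the same directions with siTNFR1, where 32.4% of genes were called higher and 30.3% lower. Many genes differed between the lines, 62% and 62.7% of 10716 tested, so 4 of 6 is near the share of all genes. On the scale of all 48 arrays CFLAR read 8.21 and 7.70 in EVSA-T siCtrl against 7.15, 6.42 and 6.88 in MDA-MB-231 siCtrl. The groups did not overlap, and the difference was 1.14 (SE 0.298, 2.2-fold, adjusted p = 0.0025; 32.8% of genes called higher). Without replicate 1 of EVSA-T siCtrl it was 0.88 (adjusted p = 0.0562). With siTNFR1 it was 1.23 (adjusted p = 0.00125).
MLKL was the member farthest below MDA-MB-231. It read 7.85 and 8.16 in EVSA-T against 8.91, 9.11 and 9.12 in MDA-MB-231, and was 2.07-fold lower (-1.05, SE 0.172, adjusted p = 2.29e-05; 29.2% of genes called lower). With siTNFR1 it was 1.54-fold lower (-0.62, adjusted p = 0.00372), and without replicate 1 of EVSA-T siTNFR1 the difference was -0.29 (adjusted p = 0.19). FADD read 9.86 and 9.74 against 10.41, 10.45 and 10.55, which was 1.59-fold lower in EVSA-T (-0.67, SE 0.136, adjusted p = 0.000242) and as much lower with siTNFR1 (-0.67, adjusted p = 0.000227).
For TRADD the lines were less clearly apart. Its brighter probe read 7.56 and 6.95 in EVSA-T against 6.65, 6.42 and 6.60, a difference of 0.69 (SE 0.242, adjusted p = 0.0187) with siCtrl and 0.89 (SE 0.242, adjusted p = 0.00323) with siTNFR1. Without replicate 1 of EVSA-T the siCtrl difference was 0.38 (adjusted p = 0.295) and the siTNFR1 difference 0.48 (adjusted p = 0.145). Without replicate 2 of MDA-MB-231 siCtrl it was 0.62 (adjusted p = 0.0564), and against untransfected untreated MDA-MB-231 cells 0.40 (adjusted p = 0.149). The second TRADD probe differed by 0.29 in each comparison and was not called (adjusted p of 0.112 and 0.111). CASP8 differed by -0.02 with siCtrl (adjusted p = 0.917) and CASP10 by 0.13 (adjusted p = 0.486), both near background in each line. Without replicate 2 of EVSA-T siCtrl, CASP10 differed by 0.43 (adjusted p = 0.0389). IRF1 itself was not detected on the 2 untreated siCtrl arrays of EVSA-T and lay at least 20.8-fold below MDA-MB-231. With BV6 in EVSA-T siCtrl cells, IRF1 rose by 5.22 (limma adjusted p = 1.3e-05). Over the same change MLKL read -0.568 and FADD -0.305, neither called. A link between IRF1 and the differences between the lines was not tested.

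Across the 20 groups the order of means differed by gene. For CFLAR the EVSA-T siCtrl group with BV6 was highest at 9.63 and the other EVSA-T groups followed between 7.95 and 8.14, with untreated siIRF1 cells of MDA-MB-231 lowest at 6.70. Of its 19 pairs of neighbouring groups 18 overlapped, so only the top group stood apart from the next. MLKL ran the other way, highest in MDA-MB-231 with BV6 at 12 h (9.60) and 15 h (9.57) and lowest in EVSA-T siCtrl with BV6 (7.47), with 15 of 19 neighbours overlapping. FADD was highest with siRELA and BV6 (10.88) and lowest in EVSA-T siCtrl with BV6 (9.51), and TRADD was highest in untreated EVSA-T siTNFR1 cells (7.61) and lowest with siIRF1 and BV6 (6.34). For each of these, 17 of 19 neighbours overlapped.

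Other genes of the death pathways, in lists named for this work, were read beside the members. Among death receptors and ligands, 3 of 4 tested rose with BV6 in siCtrl MDA-MB-231 cells: TNFSF10, the ligand TRAIL, by 1.90 (SE 0.435), and its receptors TNFRSF10A by 1.13 and TNFRSF10B by 0.69. The list median was 0.91, beside -0.02 over all genes, of which 1.74% were called higher. Of the TNFR1 complex and its checkpoints 3 of 19 rose, among them TNIP1, a partner of the A20 deubiquitinase, by 0.88 and BIRC2, which encodes cIAP1, by 0.68. Of 8 mitochondrial and executioner genes, 3 other caspases and 6 necroptosis genes or RIP relatives, limma called 0, beside 2.55% of all genes.
At 15 h in the kinetic experiment 4 of 5 death receptor and ligand genes and 4 of 18 TNFR1 complex genes rose. So did 1 of 6 necroptosis genes and RIP relatives, beside 3.87% of all genes called higher. The last was RIPK2, the kinase of NOD receptor signalling, by 0.70 (SE 0.137, adjusted p = 0.00561).

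In EVSA-T cells with siCtrl, 4 of 5 death receptor and ligand genes rose, with TNFRSF10B higher by 1.79 (limma adjusted p = 6.76e-05). Of 17 TNFR1 complex genes 4 rose while 1, TAB1, fell by 0.86. Over all genes 11.4% were called, and 6.84% were called higher. TNIP1 rose by 2.93 (adjusted p = 4.93e-06). BID, which caspase-8 cleaves to carry the death signal to mitochondria, rose by 1.74 (SE 0.237, adjusted p = 0.000747), the 1 called of 7 in its list. Of 5 necroptosis genes and RIP relatives 2 rose, TICAM1 (the adaptor TRIF) by 2.21 and RIPK2 by 0.97. With siTNFR1 the same lists held 1 called gene, in the list of death receptors and ligands, beside 0.0712% of all genes called. The response was smaller with siTNFR1 than with siCtrl for 2 of 5 death receptor and ligand genes and 3 of 17 TNFR1 complex genes. The same held for 1 of 7 mitochondrial genes, where 3.05% of all genes were called lower. Among these called genes were TNF (-2.73), TNFAIP3, which encodes A20 (-3.92), and BID (-1.55).

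In the comparisons where siIRF1 lowered FADD and MLKL, BID was also lower, by -1.24 untreated (SE 0.15, adjusted p = 1.41e-06) and -0.98 with BV6. In its list of 8 tested genes, 1 was called lower in each state, and 1 was called higher with BV6. RBCK1, which encodes the HOIL-1 subunit of the linear ubiquitin ligase, was lower by -0.98 (adjusted p = 2.27e-05) and -1.40 (adjusted p = 1.34e-07). Of the 19 TNFR1 complex genes tested, 2 were called lower untreated and 3 with BV6. Over all genes 12.4% and 12.8% were called lower in these states. Among other caspases, 1 rose and 1 fell of 3 in untreated cells, with CASP4, an inflammatory caspase, higher by 0.51. In that comparison 21.8% of all genes were called. Between the untreated lines with siCtrl, 4 of 5 death receptor and ligand genes were lower in EVSA-T, led by TNFRSF10B (-3.34, limma adjusted p = 2.23e-14). APAF1, the scaffold of the apoptosome, was lower by -2.01. In the TNFR1 complex list 3 of 19 were higher and 7 lower, with BIRC2 at -1.40 and TAB1 at 1.74, beside 32.8% of all genes higher and 29.2% lower.

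Likeness of pattern was described over the means of the 16 MDA-MB-231 groups, among 7293 genes detected on at least 24 of 48 arrays. These groups share arrays' normalization and slides, and the values carry no test. CFLAR was most like RN7SK (Pearson r = 0.895), RNU4-2 (0.89) and RNVU1-7 (0.885), which are small noncoding RNAs. FADD was most like FHOD1 (0.921), CSTF3 (0.917) and CBR1 (0.916), and TRADD, the least matched, like PON2 (0.719), ARRB1 (0.718) and SLC15A4 (0.713). MLKL was most like IER3 (0.942), SNORD104 (0.927) and SNORA57 (0.904). Between members the r ran from 0.305 for CFLAR with FADD to 0.615 for FADD with MLKL, with CFLAR and TRADD at 0.608.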

How the data were processed

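RNA of 48 samples was measured on 4 slides, as total RNA turned into biotin-labelled cRNA per the labels' protocols. The authors deposited, as the file headers show, log2 signals with a detection p-value for each probe on each array; their background correction and scanner software are not given in the sources used here. Signals were raised to the power of 2 and processed within each experiment in R 4.3.3 with limma 3.58.1: neqc (offset 16), then a filter keeping probes with a deposited detection p-value under 0.01 on as many arrays as the smallest group holds (3 in the siRNA experiment, 2 otherwise). A gene can thus enter through the group where it is high. The probe of highest mean stood for its gene. The 20 arrays of the line comparison and, for levels over the 20 groups, all 48 arrays were normalized together. Genes were fitted with 1 shared spread per experiment and called at a Benjamini-Hochberg adjusted p under 0.05 over all genes. Tests were also run on simulated data, whose outcome is not given here and is used for no result above. The table held 48107 probes, of which 3 lacked a value and 17984 lacked a symbol, and 0 symbols changed on matching to the reference.

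Arrays carry no molecule count, so their number limits the precision. Replicate numbers were checked for pairing by the correlation of same-numbered deviations over genes: every pair exceeded 0.1 for BV6 with siCtrl (0.127 to 0.242) or siIRF1 (0.176 to 0.312), siRELA (0.167 to 0.392) and siIRF1 (0.101 to 0.335) in BV6, the kinetic BV6 groups of 6 h (0.15 to 0.208), then 9 h (0.254 to 0.4), then 12 h (0.28 to 0.332), then 15 h (0.153 to 0.16), and for the difference of responses in EVSA-T (0.175 to 0.379). The pairing there comes from the data, not the labels. The text names all members, the targeted genes, up to 4 called genes per pathway list with the largest change among those detected in both groups, and the 3 genes most like each member. The members, lists and tests were chosen with earlier results of these data known. Of the listed genes, BIRC3, SPATA2 and TRAF2 had no probe with their symbol and were not analysed here. Alternatives were the authors' deposited series matrix (log2, quantile-like), other background corrections, filters, probes, references, array weights, slide and replicate blocks, and leaving out each array.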

Additional observations from a re-analysis of the deposited data

Results flagged for a closer look

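The CFLAR response to BV6 in EVSA-T cells differed between TNFR1 siRNA and control siRNA by -1.57 on the log2 scale (SE 0.315, limma adjusted p = 0.0192), a tested difference between groups under the same treatment. In that comparison 3.85% of all genes were called. The MLKL level differed between 15 h and 3 h of BV6 in untransfected MDA-MB-231 cells by 0.705 (SE 0.167, adjusted p = 0.0267), a tested difference between times. There 4.16% of all genes were called. Every group in these 2 comparisons held 2 arrays, and both calls were lost when certain single arrays were left out.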

How the results depend on the processing

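Of 142 member changes tested, 20 were called. Of these, 16 were called under all alternatives with a test, and 10 also with each array left out in turn. Those 10 were FADD and MLKL with siIRF1 and BV6, MLKL with siIRF1 untreated, TRADD with siIRF1 and BV6, CFLAR in EVSA-T with siCtrl and BV6 and with siTNFR1 in BV6, FADD between the lines under both siRNAs, CFLAR between them under siTNFR1, and MLKL between them under siCtrl. Counts of members called moved in these cases; the cause was not tested. With the replicate block there were 2 at 12 h, 2 at 15 h, 1 at 9 h, 2 for BV6 with siCtrl and 2 for siTNFR1 in BV6-treated EVSA-T (MLKL joining, adjusted p = 0.0299), and the block changed no other count of members. With array weights there were 2 for BV6 with siCtrl, 1 for BV6 with siTNFR1 and 1 for siRELA in BV6. With a filter at a detection p of 0.05 or with none, BV6 with siCtrl had 0, and with none the EVSA-T difference of responses had 0. With the 15 h untreated arrays as reference, 15 h had 0. For siRELA in BV6 the authors' matrix and the quantile values without background correction each gave 1. A reference of the other targeting siRNAs, added after the data were seen, gave 2 for siRELA untreated, 2 for siRELA in BV6 and 1 for siTNFR1 in BV6. Under it MLKL with siRELA untreated turned to 0.408, MLKL with siTNFR1 in BV6 to 0.35 and TRADD with siRELA in BV6 to 0.499. That reference holds the siIRF1 arrays. Against siCtrl, MLKL was called lower on them untreated (-0.814) and with BV6 (-0.707), and TRADD with BV6 (-0.934). Leaving out 1 array gave from 0 to 1 members at 3 h, 12 h, 15 h, for the EVSA-T difference of responses and for siRELA in either state, from 0 to 2 for BV6 with siCtrl and for 15 h against 3 h, from 1 to 2 for siIRF1 untreated, from 2 to 5 for the lines with siCtrl and from 2 to 4 with siTNFR1. Over all genes, the replicate block moved the number called by over 1.5 times for BV6 with siCtrl (389 against 244) and siTNFR1 (192 against 127), at 3 h (87 against 38), 6 h (94 against 47), 9 h (219 against 121), 12 h (673 against 413) and 15 h (1112 against 692), for 15 h against 3 h (735 against 414), siTNFR1 untreated (509 against 317, and 487 with the slide as a block) and the EVSA-T difference of responses (505 against 324). Array weights gave 1194 at 15 h, 111 at 6 h and 17 at 3 h. Untreated cells of one time as reference gave 397 at 15 h, 54 at 9 h and 20 at 3 h. The reference of other targeting siRNAs gave 2876 against 1835 for siRELA in BV6, 1100 against 475 for siTNFR1 in BV6 and 988 against 317 untreated. In comparisons with under 50 genes called, other settings also moved the count. CASP8, CASP10 and RIPK3 lie near background, so these arrays limit what can be said of them.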
